A study of Mus musculus with 35 samples.

Results

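Genes of the mitochondrial respiratory chain were examined by RNA sequencing in the left cortex of mice after closed head injury. Members were taken by name from the deposited gene table, as symbols that begin with Nduf, Uqcr, Sdha, Sdhb, Sdhc, Sdhd or Atp5, or with Cox4, Cox5, Cox6, Cox7 or Cox8. The rule took 98 of 21203 genes, under 97 symbols, because Atp5o stood under 2 gene identifiers. They comprised 37 genes of complex I, 8 of its assembly, 4 of complex II, 4 of its assembly, 8 of complex III, 18 of complex IV, 18 of complex V, and Ndufa4l2, a paralogue of the complex IV subunit Ndufa4. A filter on low counts passed 96 of the 98, and Cox7b2 and the second Atp5o entry were not tested. The 98 genes lay on 19 chromosomes of the GRCm38 build, with at most 10 on any of them, so they shared a function and not a place in the genome.

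The respiratory chain sits in the inner mitochondrial membrane. Complexes I and II pass electrons from NADH and succinate to ubiquinone, complex III passes them to cytochrome c, complex IV passes them to oxygen, and complex V, the ATP synthase, makes ATP from the proton gradient that complexes I, III and IV build. Neurons draw most of their ATP from this chain, and most of its subunits are encoded in the nucleus, while the catalytic cores of complexes I, III, IV and V also need proteins encoded by mitochondrial DNA, whose genes were outside the name rule.

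All mice were male and of the strain background C57BL/6NCrl, 8 to 9 weeks old when procedures began. Injured mice received a closed head impact and, on day 5 after it, an injection into the left hippocampus of phosphate-buffered saline (PBS), of mesenchymal stromal cells (MSC), or of MSC transfected with synthetic interleukin-4 mRNA (IL-4 MSC). The injected cells were primary C57BL/6N cells of a single vendor lot, so that the MSC and IL-4 MSC groups do not sample donors. Tissue was taken from 2 mm around the injection site at 1 or 3 weeks post injury (wpi). The paper describes the dissected region as 3 mm wide in each hemisphere. There were 5 mice for each treatment and week except PBS at 3 wpi, for which 4 of the 5 labelled mice had values. The control was a Sham group of 5 mice without impact or treatment, of which replicates 3 and 4 belonged to week 1 and replicates 1, 2 and 5 to week 3. These 5 mice served as the control for both weeks, so every comparison with Sham shares them. Every injured mouse also had an injection and no Sham mouse did, so impact and injection cannot be told apart in these comparisons. Each injured group had a number of its own in brackets in the sample titles, and Sham had 2, split by week. Any effect of what the number marks cannot be told apart from the group in the injured mice, nor from the week in Sham. Pairs of Sham mice correlated across genes at 0.992 to 0.993 within a week and at 0.985 to 0.989 across weeks.

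The 34 libraries held 29838423 to 41554322 estimated counts, with a median of 32655330. Group medians lay between 31657310 for PBS at 1 wpi and 35701068 for IL-4 MSC at 3 wpi. Values for each gene across mice are CPM, counts relative to a library size scaled by the trimmed mean of M-values (TMM). Levels between genes are given in the deposited TPM, which is relative to transcript length as well. A gene is said to have risen or fallen where edgeR's quasi-likelihood test gave a Benjamini-Hochberg adjusted p under 0.05 over all 17131 genes tested. Estimated counts lay within 0.1 of a whole number, a tolerance chosen after seeing the data, in all libraries for 65 of the 98 members, and in under 50% of the libraries for 26. A fractional count can come from reads shared with another gene, and how far it affects the values of those 26 members was not tested.

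The tissue label was checked against marker genes. All 16 neuron markers were present, from Rbfox3 at a mean of 212 CPM to Camk2a at 2574 CPM, and no marker of any cell type list was at 0 in every library. Markers of the striatum, which lies below the cortex, were also present. Their summed level was 845, 919.5, 314, 301 and 1039 CPM in the Sham mice and 1789.8, 473, 1739.9, 2895 and 2164 CPM in the IL-4 MSC mice at 3 wpi. All but the second IL-4 MSC mouse lay above every Sham mouse. In that comparison 10 of the 13 striatum markers rose and none fell, against 2.76% higher and 1.52% lower of all genes. How much of this came from where the tissue was cut was not tested.

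Some libraries stood apart from the rest of their groups. For each mouse, the median over the members of the deviation of log2 CPM from the mean of the 34 mice was taken. In PBS mice at 1 wpi it was -0.02, -0.01, -0.29, 0.04 and 0.07, in IL-4 MSC mice at 1 wpi -0.10, -0.02, -0.03, -0.04 and -0.02, and in MSC mice at 3 wpi 0.03, -0.09, -0.04, 0.0032 and 0.03. Replicate 3 of the first group, replicate 1 of the second and replicate 2 of the third were lowest. As a share of the range of the group, the gap to the next mouse was above Dixon's critical value in the first and second of these groups and not in the third. The shortest 10% of all genes had a median deviation of -0.21 in the first of these libraries, 0.0036 in the second and -0.07 in the third. The first and the third were the lowest of the 34 libraries for short genes, and they are called the 2 libraries low in short genes. The members are mostly short, with 70 of the 96 tested members in that shortest 10%. Counts are given without these 2 libraries and also without all 3, choices made after seeing the data.

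**Figure D1:**
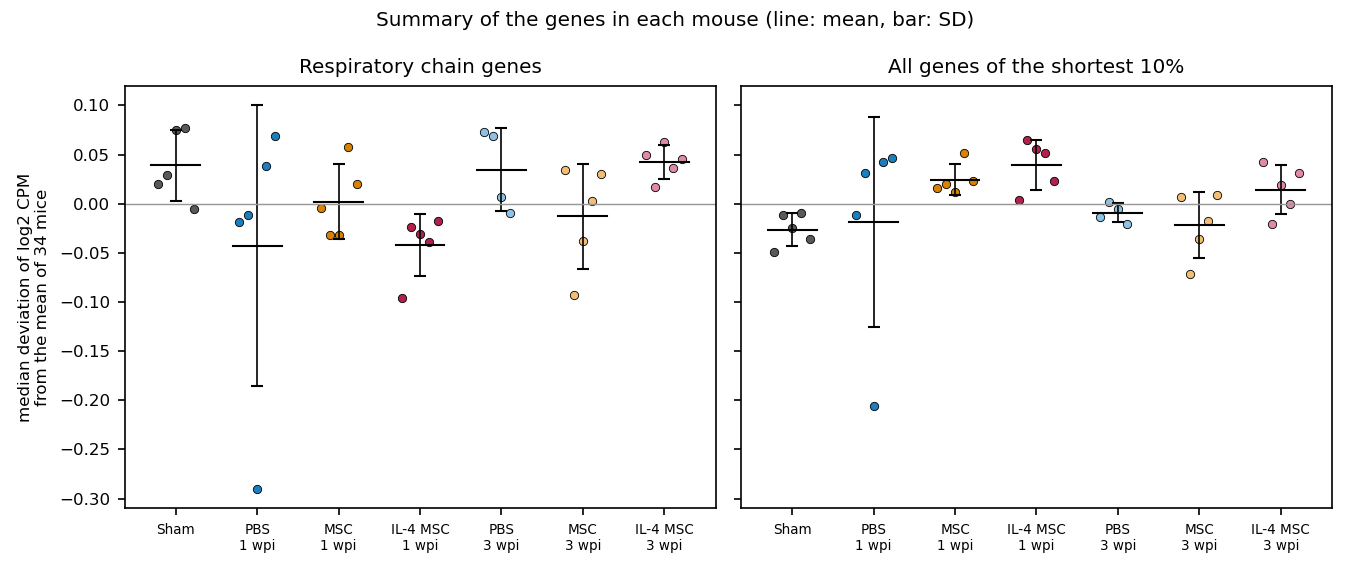
Median deviation of log2 CPM (TMM-scaled) from the mean of the 34 mice, by mouse and group, for the members and for the shortest 10% of genes. Replicate 3 of PBS at 1 wpi lies lowest for the members, at -0.29, and lies at -0.21 for the short genes.

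Levels per length differed widely between the members. The median TPM over the 34 mice had a median of 203 across the 97 members above 0, against 12.7 across the 18761 genes above 0. In complex I the median TPM ran from 107 for Ndufs1, the largest iron-sulphur subunit of the electron-input arm, to 345 for Ndufb8, an accessory subunit of the membrane arm, with Ndufb9 next at 333. Complex II ran from 102 for the membrane anchor Sdhd to 259 TPM for the flavoprotein Sdha, which oxidises succinate. Complex III ran from 135 for the Rieske iron-sulphur protein Uqcrfs1 to 537 TPM for the hinge protein Uqcrh. In complex IV, Cox8a led with 1064 TPM, before Cox4i1 with 986. In complex V, Atp5b, the catalytic beta subunit, led with 911 TPM, before Atp5md with 777.

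Assembly factors, which help build the complexes and are not part of them, were lower per length. Those of complex I had a median of 35.1 TPM and at most 44.5, for Ndufaf2. Those of complex II had a median of 24.1 TPM and at most 44.9, for Sdhaf2, with Sdhaf3 lowest at 5.36. Every subunit of complexes I, II and III had a median TPM above that of every assembly factor.

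**Figure D2:**
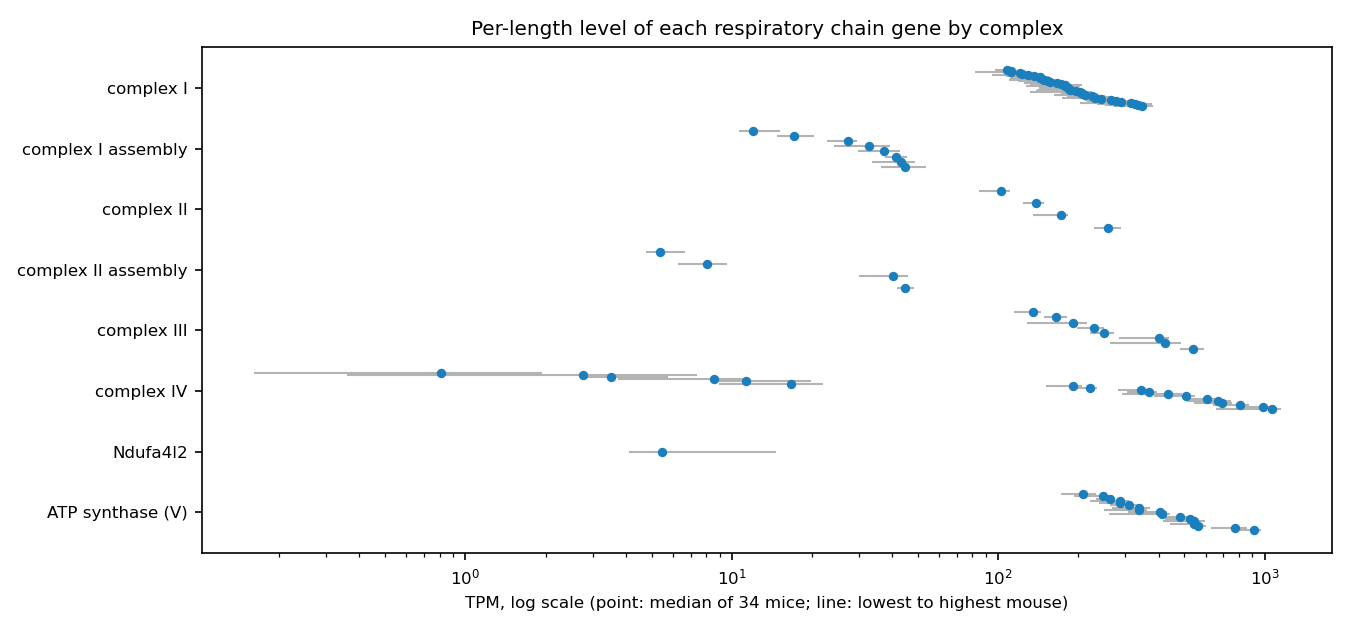
Median deposited TPM over 34 mice of each member on a log axis, by complex, with a line from the lowest to the highest mouse. Cox8a is highest at 1064 TPM, and the assembly factors lie between 5.36 and 44.9 TPM.

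Several complex IV subunits come as pairs, with a form found in most tissues and a form known from heart, skeletal muscle, lung or testis. In TPM, the common forms led throughout. Cox6a1 had a median of 666 against 16.7 for Cox6a2, the heart and muscle form. Cox6b1 had 508 against 11.3 for Cox6b2, the testis form, and Cox7a2 had 367 against 8.56 for Cox7a1, the heart and muscle form. Cox7a2l had 220, and Cox7b had 191 against 0.810 for Cox7b2. Cox4i1 had 986 against 3.53 for Cox4i2, a form known from lung and from cells that respond to low oxygen. Cox8a had 1064 against 2.77 for Cox8b, and Cox8c was not analysed here. Ndufa4 had a median of 691 TPM and its paralogue Ndufa4l2 had 5.47.

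The spread between mice of a group was small for most members. The standard deviation of log2 CPM within groups had a median of 0.0889 over 97 members and ran from 0.0380 for Atp5a1, the alpha subunit of the ATP synthase, to 0.935 for Cox8b. It was over 0.2 for 7 members, which were Cox8b, Cox7b2, Cox6a2, Cox7a1, Cox4i2, Cox6b2 and Ndufa4l2, all of them rare. In CPM, Cox8b lay between 0.0328 and 0.645, Cox7a1 between 0.393 and 1.17, and Cox4i2 between 0.686 and 1.52 over the mice, so counting error bears on these genes.

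The first comparisons ask how each injured group differed from Sham at 1 wpi. With IL-4 MSC, core subunits such as Ndufs1, Sdha, Uqcrc2 and Atp5b fell, with log2 fold changes between -0.17 and -0.14, and the rare paralogue Ndufa4l2 rose. With PBS, 3 of 96 members fell and none rose, against 5.03% of all genes lower and 8.73% higher. With MSC, 4 fell and 1 rose, against 6.89% lower and 11% higher of all genes. With IL-4 MSC, 24 fell and 2 rose, against 18.5% lower and 18.4% higher. The share of members that fell with IL-4 MSC was 25%, and the share that rose was 2.08%. The 3 comparisons share the Sham mice. Against the 2 Sham mice of that week alone, 12 fell and none rose with PBS, 10 fell and none rose with MSC, and 23 fell and 2 rose with IL-4 MSC. With the TMM factors of all 34 libraries held, those counts were 8 with PBS, 6 with MSC and 25 with IL-4 MSC.

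The log2 fold change was below 0 for 85 of 96 members with PBS, 69 with MSC and 80 with IL-4 MSC. Over all genes that share was 51.8%, 52.5% and 53.7%. The members' median log2 fold change was -0.08 with PBS, -0.04 with MSC and -0.08 with IL-4 MSC, where all genes had medians of -0.01, -0.01 and -0.02. As a size, the median change with IL-4 MSC was -5.16%, and the median standard error of a member's log2 fold change was 0.0546. A single member's typical difference was thus little more than its standard error. In bulk tissue, fewer cells of a type and less RNA per cell cannot be told apart.

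These counts moved with the scaling of the libraries. Scaled by library size alone in place of TMM, 3 members fell and 2 rose with IL-4 MSC, and none fell and 2 rose with MSC. The 3 that fell with IL-4 MSC under that scaling were Ndufs1, Sdha and the complex II assembly factor Sdhaf3. The members' median log2 fold change with IL-4 MSC was then -0.0038, and with MSC it was 0.0107, above 0. With PBS no member passed under that scaling. TMM scales each library against a reference library, which was replicate 5 of MSC at 3 wpi. With each of the 34 libraries as the reference in turn, a choice made after seeing the data, 10 to 25 members fell and 2 rose with IL-4 MSC. The total was then below 26 for 29 of the 34 references and above it for 2, with a median of 23 and a range of 12 to 27. It lay between 2 and 6 with MSC and between 1 and 10 with PBS. Without the 2 libraries low in short genes, 38 fell and 2 rose with IL-4 MSC, and 10 fell and 3 rose with MSC. Those 2 libraries are not of the groups compared here, and bear on these counts only through the fit and scaling shared by all libraries. Without replicate 1 of IL-4 MSC as well, 29 fell and 2 rose with IL-4 MSC.

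Mice were left out one at a time with the genes tested and the TMM factors of all 34 libraries held, a choice made after seeing the data, and values without a mouse are given in this way unless the scaling is said to be computed anew for each fit, as was planned before the data were examined. With IL-4 MSC the 26 members that passed became 16 without Sham replicate 4 and 17 without IL-4 MSC replicate 1, and lay between 16 and 28 in all. With MSC the 5 became 3, 1 and 2 without Sham replicates 1, 3 and 4, and 1 and 3 without MSC replicates 2 and 3. With PBS the 3 became 1, 1, 1 and 6 without Sham replicates 1, 3, 4 and 5, and 1 and 9 without PBS replicates 2 and 5. With the scaling computed anew for each fit, which can change the reference library too, the count with IL-4 MSC lay between 10 and 21.

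Of complex I, 8 of 37 subunits (21.6%) fell with IL-4 MSC at 1 wpi against Sham and none rose, near the 18.5% lower of all genes, with a median log2 fold change of -0.08 that was -0.0037 at library size alone. The 8 were Ndufa5, Ndufa9, Ndufa10, Ndufb2, Ndufb5, Ndufs1, Ndufv1 and Ndufv2, of which Ndufa5, Ndufa9 and Ndufa10 are named after their values were seen and passed in 6, 7 and 7 of the 10 fits that left out a mouse, in 2, 3 and 2 with the scaling computed anew, and with 22, 22 and 20 of the 34 reference libraries. Ndufs1 carries iron-sulphur clusters along which electrons enter the complex. Its CPM was 127, 123, 129.5, 129 and 119 in the Sham mice and 114, 111, 111, 108 and 114 in the IL-4 MSC mice. Every IL-4 MSC mouse lay below every Sham mouse. It fell by 0.17 on the log2 scale (SE 0.0277, adjusted p = 1.2e-05), from a mean of 125 to 112 CPM, and it passed without any single mouse, with adjusted p up to 8.94e-05, or 0.00142 with the scaling computed anew.

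In the other groups at 1 wpi Ndufs1 lay between. Its CPM was 118, 122, 119.9, 114 and 123 in PBS mice and 121, 112, 118, 121 and 115 in MSC mice. MSC replicate 2 lay within the range of the IL-4 MSC mice, and the PBS mice lay above it, the lowest by little. MSC against Sham gave a log2 fold change of -0.09 (adjusted p = 0.0167), which was lost without Sham replicate 3 or 4 or MSC replicate 2, with adjusted p up to 0.0650, and with the scaling computed anew also without Sham replicate 1, with adjusted p up to 0.127. At 3 wpi the values were 133, 128, 121 and 124 with PBS, 119, 119, 119.6, 118 and 120.0 with MSC and 122, 122, 128, 123 and 125 CPM with IL-4 MSC. All of the 3 wpi mice were above all of the IL-4 MSC mice of 1 wpi.

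Ndufb5, an accessory subunit of the membrane arm, was at 57.2, 58.4, 58.9, 58.8 and 58.7 CPM in Sham and 48.4, 52.0, 53.6, 53.3 and 53.9 CPM with IL-4 MSC at 1 wpi. The groups did not overlap, and the first IL-4 MSC mouse was lowest. Its log2 fold change was -0.16 (SE 0.0430, adjusted p = 0.00354). Ndufv1, which binds NADH and flavin, fell by 0.13 (adjusted p = 0.00698) and passed without any single mouse, with adjusted p up to 0.0264. It was lost with the scaling computed anew without Sham replicate 1 or 3 or IL-4 MSC replicate 1, with adjusted p up to 0.0946. With the neuron markers as a covariate its log2 fold change turned and did not pass. Its neighbour Ndufv2 fell by 0.13 (adjusted p = 0.0257). Ndufv2 was lost without Sham replicate 3 or 4 or IL-4 MSC replicate 1 or 2, with adjusted p up to 0.106. It passed in 2 of the 10 fits with the scaling computed anew, with adjusted p up to 0.304, and with 22 of the 34 reference libraries. Ndufb2 fell by 0.15 (adjusted p = 0.0312) and was lost without Sham replicate 2 or 3 or IL-4 MSC replicate 1 or 3, with adjusted p up to 0.0754. It passed in 1 of the 10 with the scaling computed anew, with adjusted p up to 0.192, and with 19 of the 34 references.

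Further core subunits of complex I did not pass. The log2 fold change with IL-4 MSC was -0.05 for Ndufs3 (adjusted p = 0.507), -0.13 for Ndufs7 (adjusted p = 0.112) and -0.06 for Ndufs8 (adjusted p = 0.463). Of the 8 assembly factors 3 fell (37.5%, against 18.5% of all genes), which were Ndufaf2, Ndufaf4 and Ndufaf5. Ndufaf2, which acts late in assembly, fell by 0.23 (SE 0.0723, adjusted p = 0.0108), from a mean of 12.4 to 10.6 CPM. It did not pass without Sham replicate 4 (adjusted p = 0.0534). The scaling computed anew also lost it without Sham replicate 3 or IL-4 MSC replicate 2, with adjusted p up to 0.0568. Ndufaf5, which modifies a core subunit, fell by 0.20 (adjusted p = 0.0188) and had an adjusted p of 0.0570 without Sham replicate 4. It passed in 3 of the 10 fits with the scaling computed anew, with adjusted p up to 0.113. With PBS it fell by 0.21 (adjusted p = 0.0324), which was lost without Sham replicate 1, 3 or 4 or PBS replicate 2, 3 or 4, with adjusted p up to 0.123, or 0.138 with the scaling computed anew. Ndufaf4 fell by 0.13 with IL-4 MSC (adjusted p = 0.0155) and had an adjusted p of 0.0720 without Sham replicate 1, while it passed in 4 of the 10 with the scaling computed anew, with adjusted p up to 0.232. With MSC it fell by 0.14 (adjusted p = 0.0145), with an adjusted p of 0.0669 without the same mouse, or 0.0966 with the scaling computed anew.

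In complex II, 1 of 4 subunits fell with IL-4 MSC at 1 wpi (25%, against 18.5% of all genes), and the median log2 fold change of -0.02 was 0.0501, of the other sign, at library size alone. That subunit was Sdha, which holds the flavin and the succinate site. Its CPM was 329, 331, 347, 369 and 326 in Sham and 299.8, 297, 311, 309 and 309 with IL-4 MSC. The groups did not overlap, and Sham replicate 4 was highest. Sdha fell by 0.16 on the log2 scale (SE 0.0323, adjusted p = 2.22e-04), and it passed without any single mouse. The other subunits, which are the iron-sulphur protein Sdhb and the membrane anchors Sdhc and Sdhd, had log2 fold changes of -0.03 (adjusted p = 0.733), -0.02 (adjusted p = 0.765) and 0.03 (adjusted p = 0.672).

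Sdhaf3, which protects the iron-sulphur subunit of complex II while it is assembled, fell in all 3 comparisons with Sham at 1 wpi. Its CPM was 12.8, 11.1, 13.3, 12.7 and 10.9 in Sham and 9.57, 10.2, 10.1, 10.4 and 11.1 with IL-4 MSC. It was 11.1, 10.5, 10.5, 9.77 and 10.8 with PBS and 10.8, 10.4, 10.7, 10.2 and 10.9 with MSC. Sham replicates 2 and 5 lay within the range of the injured mice, and the other Sham mice above it. On the log2 scale the change was -0.25 with IL-4 MSC (SE 0.0652, adjusted p = 0.00319), -0.21 with PBS (adjusted p = 0.0282) and -0.20 with MSC (adjusted p = 0.0310). It passed without any single mouse with IL-4 MSC, with adjusted p up to 0.0159, or 0.0467 with the scaling computed anew. With PBS it was lost without Sham replicate 1, 3 or 4 or PBS replicate 2 or 4, with adjusted p up to 0.0962, and with MSC without Sham replicate 1, 3 or 4 or MSC replicate 2, 3 or 4, with adjusted p up to 0.108. The adjusted p was up to 0.115 with PBS and 0.153 with MSC when the scaling was computed anew, and the call with PBS was then also lost without PBS replicate 3.

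Of complex III, 3 of 8 members fell with IL-4 MSC at 1 wpi (37.5%, against 18.5% of all genes), and the median log2 fold change of -0.06 was 0.0172, of the other sign, at library size alone. They were the core proteins Uqcrc1 and Uqcrc2, which frame the matrix side of the complex, and the Rieske protein Uqcrfs1, which takes the electron from ubiquinol. Uqcrc2 was at 141, 140.1, 155, 149 and 138 CPM in Sham and 129, 128, 126, 131 and 135 CPM with IL-4 MSC. Every IL-4 MSC mouse was below every Sham mouse, though the highest of the first and the lowest of the second were close. Uqcrc2 fell by 0.16 on the log2 scale (SE 0.0342, adjusted p = 4.27e-04), and it passed without any single mouse. Uqcrfs1 fell by 0.16 (SE 0.0427, adjusted p = 0.00395), from 82.2 to 73.7 CPM, and passed without any single mouse, with adjusted p up to 0.0169, but not without Sham replicate 1 with the scaling computed anew (adjusted p = 0.0658). Uqcrc1 fell by 0.11 (adjusted p = 0.0116) and had an adjusted p of 0.0536 without Sham replicate 4. When the scaling was computed anew it was lost without Sham replicate 1, 3 or 4 or IL-4 MSC replicate 1 or 4, with adjusted p up to 0.110. The log2 fold change of Uqcrc1 turned with the neuron markers as a covariate and did not pass.

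Of the 17 tested members of complex IV, 2 fell with IL-4 MSC at 1 wpi (11.8%, below the 18.5% of all genes), and the median log2 fold change of -0.07 was 0.0027, above 0, at library size alone. These were Cox5a and Ndufa4. Cox5a, a nuclear subunit of the matrix side, was at 79.4, 77.4, 78.0, 79.1 and 77.1 CPM in Sham and 65.6, 74.9, 70.1, 69.5 and 72.5 CPM with IL-4 MSC. The Sham mice lay within a narrow band and all above the IL-4 MSC mice. Cox5a fell by 0.15 on the log2 scale (SE 0.0507, adjusted p = 0.0199), with an adjusted p of 0.0687 without IL-4 MSC replicate 1. It passed in 3 of the 10 fits with the scaling computed anew, with adjusted p up to 0.126, and with 31 of the 34 reference libraries. Ndufa4 fell by 0.13 (SE 0.0495, adjusted p = 0.0328) and was lost without Sham replicate 3 or 4 or IL-4 MSC replicate 1, 3 or 4, with adjusted p up to 0.0865. It passed in 0 of the 10 with the scaling computed anew, with adjusted p between 0.0532 and 0.245, and with 13 of the 34 references.

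The other complex IV subunits did not pass. Cox4i1, the most abundant of them after Cox8a per length, had a log2 fold change of -0.12 (adjusted p = 0.0803), and Cox5b of -0.03 (adjusted p = 0.781). Of the common forms, Cox6a1 had -0.09 (adjusted p = 0.298), Cox6b1 -0.07 (adjusted p = 0.389), Cox7a2 -0.06 (adjusted p = 0.255), Cox7a2l -0.01 (adjusted p = 0.927), Cox7b -0.10 (adjusted p = 0.124) and Cox8a -0.11 (adjusted p = 0.314). Of the rare forms, Cox4i2 had -0.19 (adjusted p = 0.426), Cox6a2 0.05 (adjusted p = 0.882), Cox6b2 0.21 (adjusted p = 0.333), Cox7a1 0.38 (adjusted p = 0.171) and Cox8b 0.06 (adjusted p = 0.942). For none of these pairs was a change in either form detected in this comparison.

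Ndufa4l2 was the member with the largest change. It is a paralogue of Ndufa4 known from pericytes and smooth muscle cells of vessels and as a gene that low oxygen induces. Its gene, ENSMUSG00000040280, lies on chromosome 10 at 127514967 to 127517154 on the plus strand. Its CPM was 1.78, 1.7, 1.66, 2.34 and 1.64 in Sham, 1.65, 2.16, 1.61, 2.1 and 1.99 with PBS, 2.44, 2.82, 2.0, 3.22 and 2.15 with MSC and 3.98, 5.34, 4.82, 3.81 and 3.11 with IL-4 MSC at 1 wpi. All IL-4 MSC mice were above all Sham and PBS mice, and the lowest of them lay just below the highest MSC mouse. The MSC mice overlapped Sham only through Sham replicate 4.

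At 3 wpi Ndufa4l2 was at 1.9, 2.13, 1.95 and 1.95 CPM with PBS, 1.62, 1.55, 1.82, 1.56 and 1.92 CPM with MSC and 2.17, 1.87, 2.31, 1.83 and 1.75 CPM with IL-4 MSC. These values lay within or close to the range of Sham. The group means at 1 wpi were 1.82 ± 0.293 for Sham, 1.90 ± 0.260 for PBS, 2.53 ± 0.497 for MSC and 4.21 ± 0.879 CPM for IL-4 MSC (SD). At 3 wpi they were 1.98 ± 0.101 for PBS, 1.69 ± 0.169 for MSC and 1.99 ± 0.242 CPM for IL-4 MSC. IL-4 MSC at 1 wpi came first in this order and MSC at 1 wpi next.

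Against Sham, the log2 fold change of Ndufa4l2 with IL-4 MSC at 1 wpi was 1.20 (SE 0.138, adjusted p = 1.65e-08), a change of 130% in CPM. It lay between 1.10 and 1.31 in the fits that left out a mouse. Against PBS of the same week it was 1.14 (SE 0.137, adjusted p = 1.79e-07), and against MSC 0.74 (SE 0.134, adjusted p = 1.84e-04). MSC against Sham gave 0.46 (SE 0.140, adjusted p = 0.0195), which was lost without Sham replicate 3 or MSC replicate 2 or 4, with adjusted p up to 0.0818, or 0.0796 with the scaling computed anew, where it passed without Sham replicate 3. PBS against Sham gave 0.06, and did not pass. On the TPM scale the level of Ndufa4l2 was 4.98 ± 0.776 in Sham and 11.7 ± 2.35 with IL-4 MSC (SD), against 712 and 657 for Ndufa4, so the paralogue stayed far below the common subunit.

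AA467197, also known as Nmes1, is a further relative of Ndufa4, known to be induced in activated macrophages, and is not among the 98 members by name. Its gene lies on chromosome 2 at 122636986 to 122641191 on the plus strand. Its CPM was 0.134, 0.0309, 0.115, 0.172 and 0.185 in Sham, 0.222, 0.409, 0.771, 0.314 and 0.352 with PBS, 0.383, 0.243, 0.854, 0.446 and 0.312 with MSC and 3.3, 4.36, 4.07, 2.04 and 2.7 with IL-4 MSC at 1 wpi. All 5 IL-4 MSC mice lay above every mouse of the other groups. At 3 wpi its mean was 0.168 ± 0.111 with PBS, 0.206 ± 0.145 with MSC and 0.254 ± 0.129 CPM with IL-4 MSC (SD).

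The log2 fold change of AA467197 with IL-4 MSC at 1 wpi was 4.64 against Sham (SE 0.415, adjusted p = 1.00e-10), 2.99 against PBS (adjusted p = 1.34e-07) and 2.85 against MSC (adjusted p = 3.64e-07). It rose with PBS by 1.65 (adjusted p = 0.0200) and with MSC by 1.78 (adjusted p = 0.00815) against Sham. In the Sham libraries 3 counts make 0.0722 to 0.0975 CPM before TMM scaling, so the changes of AA467197 against Sham rest on few counts there. In TPM its level with IL-4 MSC was 12.1 ± 3.26 (SD), against 11.7 for Ndufa4l2 and 657 for Ndufa4. In Sham it was 0.435 ± 0.206 TPM, so the order of AA467197 and Ndufa4l2 was clear in Sham and lay within the spread with IL-4 MSC.

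**Figure D3:**
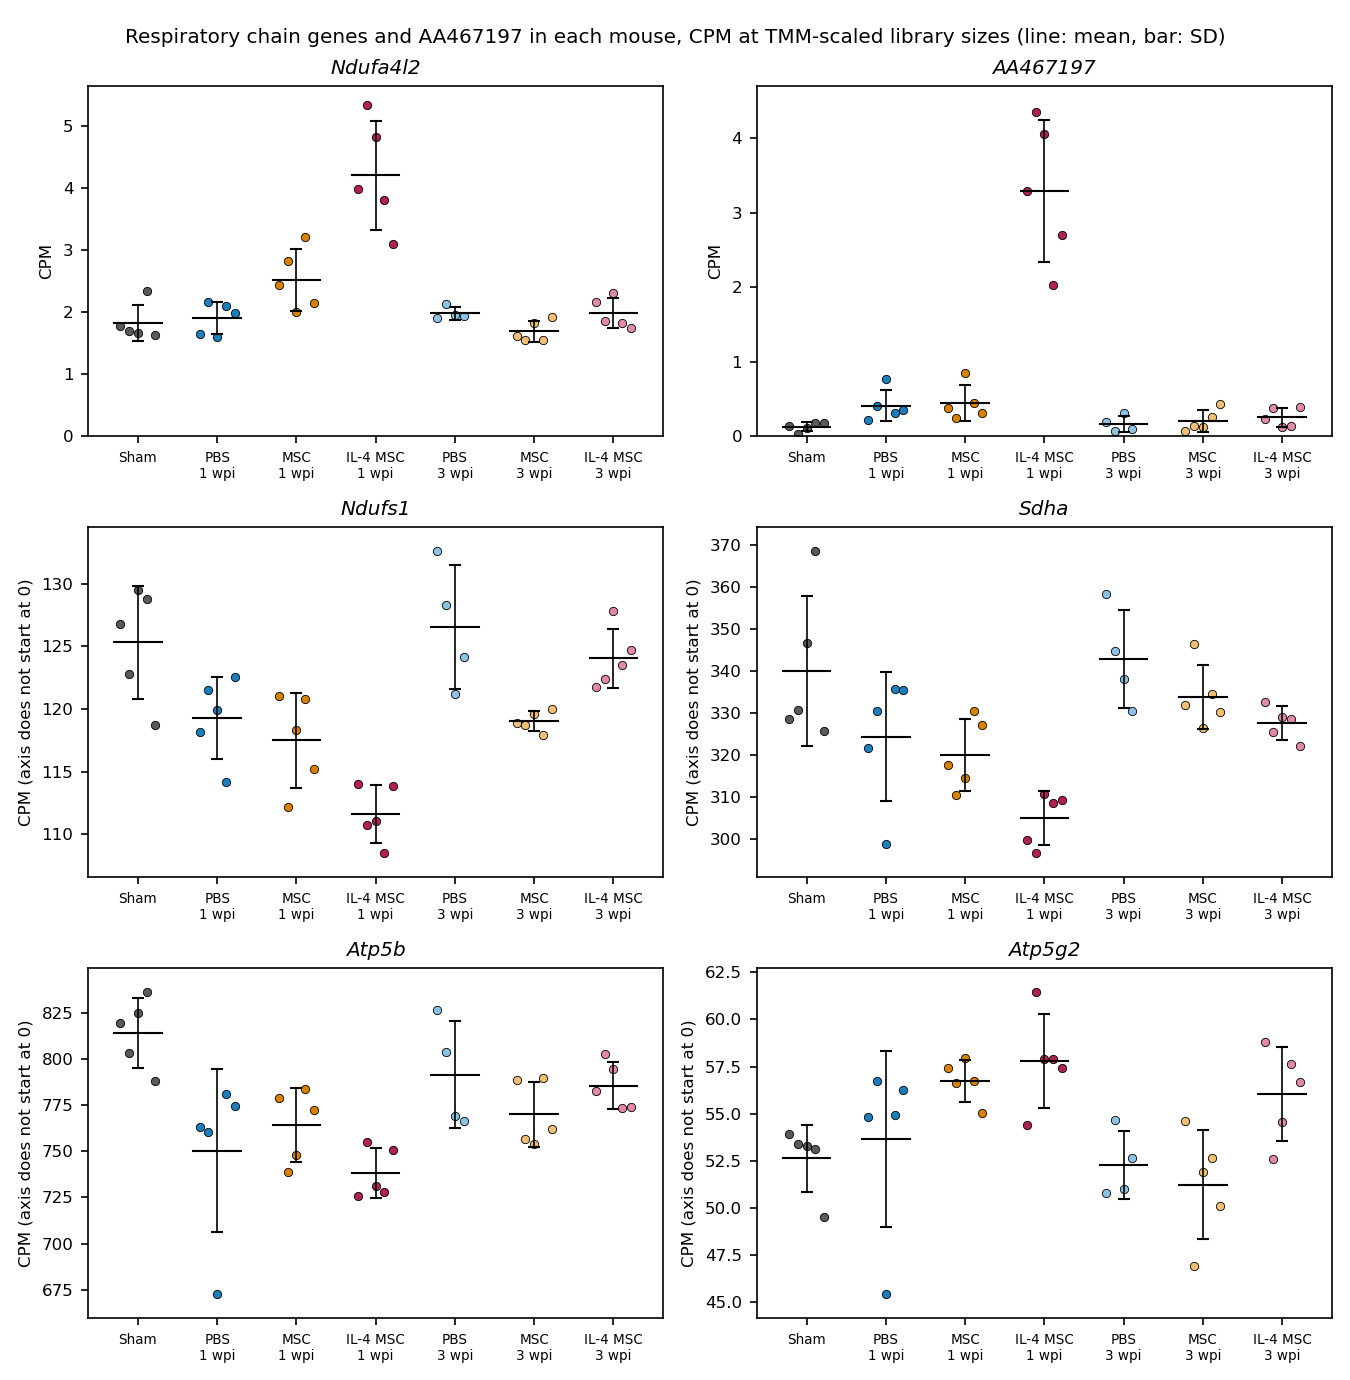
CPM (TMM-scaled) of Ndufa4l2, AA467197, Ndufs1, Sdha, Atp5b and Atp5g2 in every mouse of the 7 groups, with a line at the group mean and a bar of 1 SD; the axes of the last 4 genes do not start at 0. Ndufa4l2 has a mean of 4.21 CPM with IL-4 MSC at 1 wpi and 1.82 CPM in Sham, while Ndufs1 has means of 112 and 125 CPM.

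Of the 17 tested members of complex V, 6 fell (35.3%, against 18.5% of all genes) and 1 rose with IL-4 MSC at 1 wpi, and the median log2 fold change of -0.09 was -0.0209 at library size alone. Atp5b, the subunit that makes ATP, was at 819, 803, 825, 836 and 788 CPM in Sham, 763, 760.5, 673, 781 and 774 with PBS, 779, 739, 748, 784 and 772 with MSC and 726, 755, 731, 728 and 750.5 with IL-4 MSC. All injured mice of 1 wpi were below all Sham mice, and replicate 3 of PBS was far below the rest. Its fold change on the log2 scale was -0.14 with IL-4 MSC (SE 0.0314, adjusted p = 5.40e-04), -0.12 with PBS (SE 0.0314, adjusted p = 0.00949) and -0.09 with MSC (adjusted p = 0.0404). With PBS it passed without any single mouse, with adjusted p up to 0.0370, but not without PBS replicate 3 with the scaling computed anew (adjusted p = 0.0525). With MSC it was lost without Sham replicate 1, 3 or 4 or MSC replicate 2 or 3, with adjusted p up to 0.110. A scaling computed anew also lost it without Sham replicate 2, with adjusted p up to 0.157, and it passed with 13 of the 34 reference libraries.

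Atp5a1, its alpha partner in the catalytic ring, was at 658, 648, 671, 686 and 628 CPM in Sham and 589.7, 596, 605, 603 and 611 CPM with IL-4 MSC. The groups did not overlap. Atp5a1 fell by 0.13 (SE 0.0270, adjusted p = 2.29e-04). Both Atp5b and Atp5a1 passed with IL-4 MSC without any single mouse under either scaling, and neither at library size alone, with adjusted p of 0.0951 and 0.0961. Atp5c1, the central stalk, had a log2 fold change of -0.09 and did not pass (adjusted p = 0.0937). The others that fell, named after their values were seen, were Atp5f1 and Atp5h of the peripheral stalk, Atp5g1 of the membrane ring and Atp5md, with log2 fold changes from -0.13 to -0.09. They passed in 4 of the 10 fits that left out a mouse for Atp5f1 and Atp5h, in 9 for Atp5g1 and in 8 for Atp5md. Under a scaling computed anew these were 1 for Atp5f1 and Atp5h and 4 for Atp5g1 and Atp5md. Atp5f1 passed with 5 and Atp5h with 15 of the 34 reference libraries.

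Atp5g2, a second gene for the ring subunit c, went the other way and is named after its values were seen. Its CPM was 53.9, 53.4, 53.3, 53.1 and 49.5 in Sham and 54.4, 61.4, 57.9, 57.9 and 57.4 with IL-4 MSC at 1 wpi. The groups did not overlap, and Sham replicate 5 was lowest. Atp5g2 rose by 0.14 on the log2 scale (SE 0.0461, adjusted p = 0.0203), a change of 9.84% in CPM. It was lost without Sham replicate 5 or IL-4 MSC replicate 2, with adjusted p up to 0.0736. It passed without any single mouse with the scaling computed anew, with adjusted p up to 0.0404, and at library size alone, where it was 0.21 (adjusted p = 8.41e-04). Atp5g1 and Atp5g2 encode the same mature protein behind different import sequences, and Atp5g1 fell by 0.13 (adjusted p = 0.0166).

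**Figure D4:**
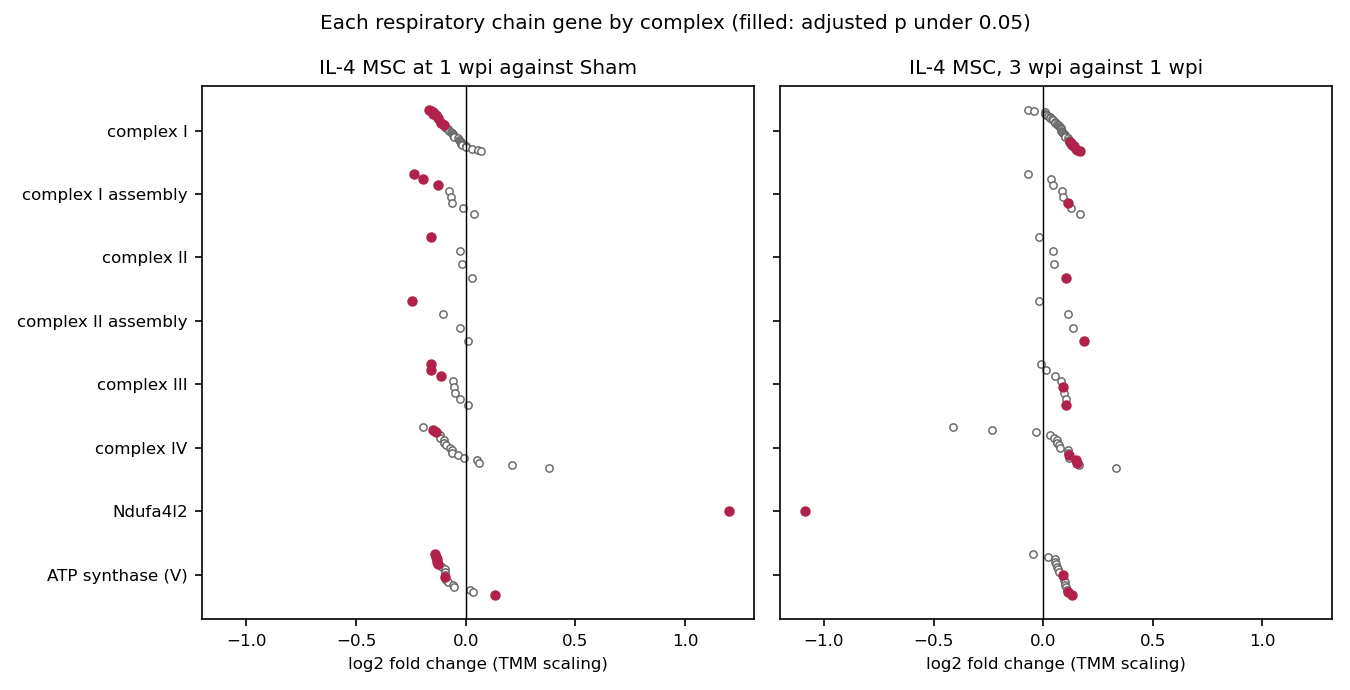
Log2 fold change under TMM scaling of each tested member by complex, for IL-4 MSC at 1 wpi against Sham and for IL-4 MSC at 3 wpi against 1 wpi, with filled points at adjusted p under 0.05. The first has 24 members lower and 2 higher, or 3 and 2 at library size alone, and the second 17 higher and 1 lower, or 1 and 1 at library size alone, and over the 34 reference libraries of TMM the totals run from 12 to 27 and from 4 to 19.

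A larger share of the 20 core and catalytic subunits fell than of the rest under TMM scaling, at 50% against 18.4%. With IL-4 MSC at 1 wpi against Sham, 10 of the 20 fell and none rose, with a median log2 fold change of -0.12. Of the other 76 members 14 fell and 2 rose, with a median of -0.06. The median standard error was 0.0431 for the core subunits and 0.0579 for the others, so the core subunits were also measured more closely. At library size alone 2 of the 20 fell, Ndufs1 and Sdha, and 1 of the other 76, Sdhaf3. With the neuron markers as a covariate none of either set fell. No test of the difference between these sets was made.

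Gene length went with the calls in the same comparison. Of the 70 members in the shortest 10% of genes 10 fell and 2 rose, and of the 26 outside it 14 fell and none rose. All genes in the shortest 10% had 4.85% lower and a median log2 fold change of 0.04, and all others had 20% lower and a median of -0.02. The short members thus had a median of -0.06 where short genes in all had 0.04. The 26 longer members had a median of -0.096. Their median standard error was 0.0391, against 0.0579 for the short members, so the longer members were also measured more closely. When each library's trend with length was taken out, 59 of the 96 members fell and 2 rose with IL-4 MSC, 22 fell and 1 rose with MSC, and 20 fell with PBS, a setting chosen after seeing the data. The part of length in these results was not tested.

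Between treatments at 1 wpi few members differed. For IL-4 MSC against PBS the log2 fold change was above 0 for 50 members and below 0 for 46, with a median of 0.0038. IL-4 MSC against PBS gave 1 member higher and 1 lower, against 11.2% higher and 6.16% lower of all genes. These were Ndufa4l2, given above, and Ndufs1, which fell by 0.10 (adjusted p = 0.0147) and passed without any single mouse, with adjusted p up to 0.0483. It passed in only 2 of the 10 fits with the scaling computed anew, those without PBS replicate 1 or 4, with adjusted p up to 0.153. It passed with 23 of the 34 reference libraries, with adjusted p up to 0.0917. The count of 2 lay between 1 and 4 over these references. It became 8, with 1 higher and 7 lower, without PBS replicate 3. At library size alone 2 members were higher and 0 lower. Without the 2 libraries low in short genes, 1 was higher and 9 were lower, and without IL-4 MSC replicate 1 as well, 1 was higher and 5 were lower.

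IL-4 MSC against MSC gave 1 member higher, Ndufa4l2, and 0 lower, against 7.66% higher and 1.03% lower of all genes. Without MSC replicate 2, 1 was higher and 1 lower. For 76 of the 96 members the log2 fold change was below 0, with a median of -0.04, and 8 had an unadjusted p under 0.05. MSC against PBS gave 0 of 96 by edgeR and 0 by DESeq2, against 0.123% of all genes, with 1 member at an unadjusted p under 0.05. There 83 members had a log2 fold change above 0, with a median of 0.04.

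At 3 wpi no member passed against Sham. PBS gave 0 of 96 by edgeR and 0 by DESeq2, with 1 at an unadjusted p under 0.05, against 0.0292% of all genes. MSC gave 0 by both tools, with 9 at an unadjusted p under 0.05, against 1.15% of all genes. IL-4 MSC gave 0 by both tools, with 2 at an unadjusted p under 0.05, against 4.27% of all genes. The members' median log2 fold change was -0.01 with PBS, -0.05 with MSC and 0.001 with IL-4 MSC, where library size alone gave 0.0087, -0.0362 and 0.0121. With IL-4 MSC the count was 1 without Sham replicate 3, 1 without IL-4 MSC replicate 2 and 1 against the 3 Sham mice of that week. With MSC the log2 fold change was below 0 for 83 members, and with IL-4 MSC for 46.

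Between treatments at 3 wpi, IL-4 MSC against PBS gave 0 of 96 members by edgeR and 0 by DESeq2, with 1 at an unadjusted p under 0.05, against 2.94% of all genes. MSC against PBS gave 0 by both tools, with 3 at an unadjusted p under 0.05, against 0.0817% of all genes. For IL-4 MSC against MSC the log2 fold change was above 0 for 81 members, with a median of 0.06, and 9 had an unadjusted p under 0.05. That comparison gave 1 member higher, against 3.47% of all genes in either direction. This was Ndufs4, an accessory subunit near the electron-input arm whose loss causes a Leigh-like brain disease in mice. Its CPM was 40.8, 33.6, 37.3, 39.2 and 38.2 with MSC and 40.9, 41.9, 41.8, 42.4 and 44.4 with IL-4 MSC. The groups did not overlap, and MSC replicate 2, a library low in short genes, was lowest.

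On the log2 scale Ndufs4 was higher by 0.16 (SE 0.0451, adjusted p = 0.0393). It was lost without MSC replicate 2, 3 or 5 or IL-4 MSC replicate 3, 4 or 5, with adjusted p up to 0.142, or 0.172 with the scaling computed anew. The count was 0 at library size alone and without the 2 libraries low in short genes, 1 without IL-4 MSC replicate 1 of 1 wpi as well, 2 without MSC replicate 1, and 3 without IL-4 MSC replicate 2. In the Sham mice Ndufs4 was at 40.4, 42.7, 40.7, 40.9 and 40.5 CPM. Replicates 1, 3 and 5 lay within the range of the MSC mice, near its upper end, and replicates 2 and 4 within that of the IL-4 MSC mice.

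From 1 to 3 wpi, PBS mice had 0 of 96 members past the threshold by edgeR and 1 by DESeq2, with 15 at an unadjusted p under 0.05, against 5.51% of all genes. For 89 members the log2 fold change was above 0, with a median of 0.07, and each complex had a median between 0.05 and 0.08. The count was 1 without PBS replicate 1 of 1 wpi, and 2 without replicate 5 of 1 wpi or replicate 3 of 3 wpi. MSC mice had 1 member lower, against 6.15% of all genes in either direction, which was Ndufa4l2, where the log2 value fell by 0.57 (SE 0.142, adjusted p = 0.0102). It passed without any single mouse, with adjusted p up to 0.0479, or 0.0430 with the scaling computed anew. The count was 2 without MSC replicate 5 of 1 wpi or replicate 1 of 3 wpi, and lay between 1 and 3 over the 34 reference libraries, with a median of 2.

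With IL-4 MSC, 17 of 96 members were higher at 3 wpi than at 1 wpi and 1 was lower, against 16.4% higher and 16.6% lower of all genes. Scaling by library size alone gave 1 higher and 1 lower, and DESeq2's size factors in the same test gave 8 and 1. For 85 members the log2 fold change was above 0, with a median of 0.08 that was 0.0222 at library size alone, and all genes had a median of 0.03. The share of members that rose was 17.7%, near that of all genes. Over the 34 reference libraries of TMM, 3 to 18 were higher and 1 lower, and 31 of the 34 gave fewer than 18 in all, with a median of 8. Without the 2 libraries low in short genes, which are not IL-4 MSC mice and enter only the shared fit and scaling, 32 were higher and 1 lower. Without IL-4 MSC replicate 1 of 1 wpi as well, 21 were higher and 1 lower. With a single mouse left out the 18 became 8 and 11 without IL-4 MSC replicates 1 and 3 of 1 wpi, and 11 without replicate 3 or 4 of 3 wpi. They lay between 4 and 16 with the scaling computed anew.

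By complex, 6 of 37 subunits of complex I rose, with 1 of its assembly factors, 1 subunit and 1 assembly factor of complex II, 2 members of complex III, 3 of complex IV and 3 of complex V. These are 16.2% of complex I, 17.6% each of complexes IV and V, 25% each of complexes II and III, both of 8 members or fewer, and 12.5% and 25% of the assembly factors of complexes I and II, against 16.4% higher of all genes. Ndufs1 rose by 0.15 (SE 0.0277, adjusted p = 6.01e-05), from 112 to 124 CPM. Ndufb5 was at 60.7, 55.1, 58.8, 58.6 and 60.3 CPM at 3 wpi, all above the mice of 1 wpi, and rose by 0.17 (adjusted p = 0.00283). Atp5a1 was at 647, 658, 667, 661 and 655 CPM at 3 wpi, again above all mice of 1 wpi, and rose by 0.13 (adjusted p = 3.26e-04). These 3 and Ndufa4l2 passed without any single mouse under either scaling and with each of the 34 reference libraries. At library size alone Ndufs1 still passed (adjusted p = 0.00895), and Ndufb5 (adjusted p = 0.0766) and Atp5a1 (adjusted p = 0.0541) did not.

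Sdha was at 333, 325, 329, 329 and 322 CPM at 3 wpi, above all IL-4 MSC mice of 1 wpi, and rose by 0.10 (adjusted p = 0.0133), and passed without any single mouse, with adjusted p up to 0.0410. With the scaling computed anew it passed in 2 of the 10 fits, those without IL-4 MSC replicate 1 or 5 of 3 wpi, with adjusted p up to 0.15. It passed with 25 of the 34 references. Atp5b was at 783, 803, 794, 774 and 774 CPM and rose by 0.09 (adjusted p = 0.0273), with no overlap, but was lost without IL-4 MSC replicate 1, 3 or 4 of 1 wpi or replicate 2 or 3 of 3 wpi, with adjusted p up to 0.0613. It passed in 2 of the 10 with the scaling computed anew, with adjusted p up to 0.380, and with 7 of the 34 references. Cox5a was at 78.9, 76.9, 79.7, 78.0 and 77.5 CPM and rose by 0.15 (adjusted p = 0.0229), with an adjusted p of 0.0775 without IL-4 MSC replicate 1 of 1 wpi. It passed in 3 of the 10 with the scaling computed anew, with adjusted p up to 0.169, and with 24 of the 34 references. Ndufa4 rose by 0.15 (adjusted p = 0.0154) while its paralogue Ndufa4l2 fell by 1.09 (SE 0.137, adjusted p = 1.42e-07), from a mean of 4.21 to 1.99 CPM. Ndufa4 passed without any single mouse, with adjusted p up to 0.0445, and with 32 of the 34 references, but in 4 of the 10 fits with the scaling computed anew, with adjusted p up to 0.106.

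Also among the 10 largest changes from 1 to 3 wpi with IL-4 MSC were Sdhaf1, Ndufb2, Ndufv1 and Ndufs4. Sdhaf1, an assembly factor of complex II, rose by 0.19 (adjusted p = 0.0498) and passed in 2 of the 10 fits that left out a mouse, in 0 with the scaling computed anew, with adjusted p up to 0.258, and with 3 of the 34 references. Ndufb2 rose by 0.14 (adjusted p = 0.0484) and passed in 2 of the 10, in 1 with the scaling computed anew, with adjusted p up to 0.210, and with 3 of the references. Ndufv1 rose by 0.13 (adjusted p = 0.00925) and passed in 10 of the 10, in 4 with the scaling computed anew, with adjusted p up to 0.0992, and with 33 of the references. Its log2 fold change turned with the neuron markers as a covariate and did not pass. Ndufs4 rose by 0.13 (adjusted p = 0.0302) and passed in 5 of the 10, in 1 with the scaling computed anew, with adjusted p up to 0.190, and with 11 of the references.

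Whether the treatment difference itself changed with the week was tested as an interaction. For IL-4 MSC against PBS 1 of 96 members passed, against 4.72% of all genes. This was Ndufa4l2, whose log2 difference was larger at 1 wpi than at 3 wpi by 1.14 (SE 0.203, adjusted p = 5.62e-04). AA467197 gave 2.47 (adjusted p = 0.0230). The count was 2 without PBS replicate 3 of 1 wpi. For IL-4 MSC against MSC 2 members passed, against 7.86% of all genes, and both were lower at 1 wpi relative to 3 wpi. They were Ndufs1 at -0.13 (SE 0.0392, adjusted p = 0.0303) and Uqcrc1 at -0.16 (SE 0.0499, adjusted p = 0.0458). Ndufa4l2 gave 0.51 there (adjusted p = 0.112), so its difference from MSC at 1 wpi was not shown to change with the week.

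For Uqcrc1 the mice behind that test were at 156, 157, 151, 155 and 154 CPM with MSC and 143, 155, 151, 144 and 152 with IL-4 MSC at 1 wpi. At 3 wpi they were at 158, 143, 146, 155 and 142 CPM with MSC and 162, 159, 168, 156 and 157 with IL-4 MSC. The groups overlapped at both weeks. Neither interaction passed at library size alone or with DESeq2's size factors, and the count lay between 0 and 5 over the 34 reference libraries, with a median of 0. Ndufs1 passed in 14 of the 20 fits that left out a mouse, with adjusted p up to 0.0650, and with 16 of the references, and Uqcrc1 in 7 of the 20, with adjusted p up to 0.105, and with 10 of the references. The count was 0 without MSC replicate 1 or 4 of 1 wpi or IL-4 MSC replicate 3 or 5 of 3 wpi. It was 1 without MSC replicate 5 or IL-4 MSC replicate 1, 2, 3 or 4 of 1 wpi, or MSC replicate 2 or 3 of 3 wpi. It was 4 without IL-4 MSC replicate 5 of 1 wpi or replicate 2 of 3 wpi, and 5 without MSC replicate 1 of 3 wpi. With the scaling computed anew it lay between 0 and 2. For MSC against PBS 0 of 96 members passed by edgeR, against 0% of all genes, with 8 at an unadjusted p under 0.05.

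The 13 respiratory chain genes of mitochondrial DNA were tested in the same way. With IL-4 MSC at 1 wpi against Sham 2 of the 13 (15.4%) fell and none rose, against 18.5% lower of all genes, with a median log2 fold change of -0.13. These were mt-Co3 at -0.14 (adjusted p = 0.0226) and mt-Nd2 at -0.17 (adjusted p = 0.0323). With PBS none of the 13 passed (median -0.09) and with MSC 2 fell (median -0.14), against 6.89% lower of all genes. From 1 to 3 wpi with IL-4 MSC 8 of 13 rose and none fell, against 16.4% higher of all genes, with a median of 0.17. Their summed level was 63155, 54833, 61403, 58324 and 53178 CPM in Sham and 52241, 58025, 52194, 51809.5 and 52209 CPM with IL-4 MSC at 1 wpi, and the groups overlapped. These values are given under TMM scaling only. As a percent of all counts, without TMM, the genes of mitochondrial DNA held 5.25 to 6.11 in Sham mice and 5.33 to 5.98 with IL-4 MSC.

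Other genes of mitochondrial energy metabolism were followed as lists, beside 18.5% lower and 18.4% higher of all genes with IL-4 MSC at 1 wpi against Sham. These lists and the marker lists below are given under TMM scaling only. The calls of the members moved with the scaling in this comparison, and how far those of the lists move is not given here. Of 18 genes of the tricarboxylic acid cycle, 14 fell (77.8%) and 2 rose (11.1%), with a median log2 fold change of -0.13. Suclg2, the GTP-forming subunit of succinyl-CoA ligase, rose by 0.34 (adjusted p = 2.52e-06), and Idh2, the NADP-linked isocitrate dehydrogenase, by 0.27 (adjusted p = 0.00198). Among those that fell, Idh3a of the NAD-linked enzyme had -0.19 (adjusted p = 6.56e-05). With PBS 2 of the 18 rose and none fell, against 8.73% higher and 5.03% lower of all genes. With MSC 2 rose and 5 fell (27.8%), against 11% higher and 6.89% lower. From 1 to 3 wpi with IL-4 MSC 11 rose (61.1%) and 1 fell, against 16.4% higher and 16.6% lower.

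Of 11 genes of mobile carriers and adenine nucleotide exchange 6 fell (54.5%, against 18.5% of all genes) with IL-4 MSC at 1 wpi and none rose, with a median of -0.10. Cytochrome c, Cycs, fell by 0.16 (adjusted p = 7.92e-04), and Slc25a4, the ADP/ATP carrier of excitable tissue, by 0.15 (adjusted p = 0.00433). Its relative Slc25a5 had 0.02 (adjusted p = 0.831). Of 27 assembly factors of complexes III and IV 1 fell (3.70%) and none rose, and of 11 of complexes I and V outside the name rule 3 fell (27.3%). Of 23 glycolysis genes 6 rose and 6 fell (26.1% each, against 18.4% and 18.5% of all genes), with a median of -0.001. Of 18 regulators of mitochondrial biogenesis 3 fell (16.7%, near the 18.5% of all genes) and none rose. Among the 3 was Ppargc1a, a coactivator of respiratory chain genes, which fell by 0.28 (adjusted p = 5.11e-07). Its log2 fold change against Sham at 1 wpi was also -0.19 with PBS (adjusted p = 6.37e-04) and -0.20 with MSC (adjusted p = 3.29e-04). With IL-4 MSC at 3 wpi against Sham it was -0.15 (adjusted p = 0.0193).

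Of 7 genes of uncoupling, itaconate and inflammatory respiration 6 rose and 1 fell with IL-4 MSC at 1 wpi, against 18.4% and 18.5% of all genes, with a median of 1.48. Besides AA467197, Acod1, which makes itaconate, an inhibitor of complex II, rose by 4.43 (SE 1.70, adjusted p = 0.0396) from a mean of 0.0325 to 0.713 CPM, and so rests on few counts. Acod1 also rose with PBS, by 5.80 (adjusted p = 0.00936), and with MSC, by 5.71 (adjusted p = 0.00826), and IL-4 MSC against PBS gave -1.37 (adjusted p = 0.373). Ucp2, an uncoupling protein of immune cells, rose by 1.48 with IL-4 MSC (adjusted p = 7.19e-08), by 1.03 with PBS (adjusted p = 1.34e-04) and by 1.06 with MSC (adjusted p = 6.07e-05), and IL-4 MSC against PBS gave 0.45 (adjusted p = 0.0756). Of 78 mitochondrial ribosomal proteins 6 rose (7.69%) and 3 fell (3.85%), with a median of -0.03, while of 78 cytosolic ribosomal proteins 73 rose (93.6%) and none fell, with a median of 0.25. Of 23 genes of mitochondrial import 7 fell (30.4%) and none rose.

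Markers of cell types were followed in the same comparison, where 18.5% of all genes fell and 18.4% rose. Of the 16 neuron markers 13 fell with IL-4 MSC at 1 wpi and none rose, with a median of -0.24. Their summed level was 13932, 12584, 13955, 13592 and 13206 CPM in Sham and 11178, 11165, 11275, 11136 and 11890.0 CPM with IL-4 MSC. At 1 wpi it was 12102, 11225, 12278, 12239.9 and 12937 with PBS and 11781, 11545, 11699, 12136 and 12797 CPM with MSC. The IL-4 MSC mice all lay below the Sham mice. At 3 wpi the sum was 12827, 13894, 12466 and 12447 with PBS, 13064, 13677, 12416, 12724 and 12772 with MSC and 12482, 12533, 13649.6, 13129 and 12966 CPM with IL-4 MSC. From 1 to 3 wpi with IL-4 MSC 10 of the 16 rose (62.5%) and none fell, against 16.4% higher of all genes.

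Of the 14 microglia and macrophage markers 13 rose with IL-4 MSC at 1 wpi and none fell, with a median of 2.73. Their summed level was 236, 215, 238, 224 and 304 CPM in Sham and 943, 919, 813, 843 and 728 CPM with IL-4 MSC. At 1 wpi it was 434, 498, 446, 414 and 378 with PBS and 446, 437, 536, 416 and 428 CPM with MSC. The IL-4 MSC mice were above all of these, as they were for AA467197. The most abundant of the markers was Csf1r, at a mean of 128 CPM. At 3 wpi the sum was 254, 259, 321 and 297 with PBS, 321, 284, 275, 302 and 368 with MSC and 337, 336, 289.7, 269 and 315 CPM with IL-4 MSC.

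Of the 11 endothelium and mural cell markers, 6 rose and 1 fell with IL-4 MSC at 1 wpi, with a median of 0.23. The list mixes both cell types, of which Ndufa4l2 is known from the mural cells, and the counts were not split between them. The sum of the 11 markers was 372, 374, 379.9, 384 and 405 CPM in Sham and 445, 489, 422, 437 and 410.4 CPM with IL-4 MSC. At 1 wpi it was 369, 376, 370.5, 360.1 and 364 with PBS and 440.1, 384, 395, 376 and 371 CPM with MSC. The IL-4 MSC mice were above all Sham and PBS mice, and the most abundant marker was Rgs5, at 111 CPM. At 3 wpi the sum was 383, 375, 365 and 379.8 with PBS, 347, 385, 363, 362 and 409 with MSC and 369.9, 369, 371, 353 and 359 CPM with IL-4 MSC.

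With the mean log2 CPM of the neuron markers as a covariate, 1 of 96 members passed with IL-4 MSC at 1 wpi against Sham, which was Ndufa4l2, and 0 with PBS or MSC. From 1 to 3 wpi with IL-4 MSC 1 passed, again Ndufa4l2. With the endothelium and mural cell markers as a covariate, chosen after seeing the data, 1 rose and 9 fell with IL-4 MSC against Sham, and 1 rose and 1 fell from 1 to 3 wpi. In both sets the marker level differed between the groups compared, so a fit with it as a covariate also takes away what the groups do not share. Beyond these counts, the part of the marker lists in the results was not tested.

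The promoters of the members were searched for short motifs of factors known to act on respiratory chain genes. RefSeq promoters on GRCm38.p6, of 250 bases before and 50 after the start, were matched for 81 of the 97 symbols, 2 of them by a synonym, which gave 86 promoters. Ndufs1, Ndufa4l2, Uqcrc2 and Cox4i1 had no entry. Both strands were searched. The motif GCATGCGC of NRF1, whose reverse complement is GCGCATGC, stood in 12 of the 86 (14.0%), against 2.71% of all 32851 promoters. The motif CCGGAAG of ETS factors, with reverse complement CTTCCGG, stood in 22 (25.6%, against 8.86%). The motif AAGATGGC of YY1, with reverse complement GCCATCTT, stood in 11 (12.8%, against 2.75%).

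The E-box CACGTG, its own reverse complement, stood in 7 of the 86 (8.14%, against 7.15%). The motif TCAAGGTCA of estrogen-related receptors, with reverse complement TGACCTTGA, stood in 2 (2.33%, against 0.423%). The GC box GGGCGG, with reverse complement CCGCCC, stood in 40 (46.5%, against 35.7%). In the 22 promoters of members that fell with IL-4 MSC at 1 wpi, NRF1, ETS and E-box motifs stood in 3 each, the YY1 motif in 2, the estrogen-related receptor motif in 0 and the GC box in 11. A match is a description of the letters in the window only.

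For 6 members with a change at 1 wpi, chosen after their values were seen so that the classes with a long enough exon-free stretch are shown, the bases before the RefSeq start that lie in no GENCODE exon are printed, with the searched motifs in capitals. That of Ndufaf4 is chr4:24897833-24898082 on the plus strand, with the NRF1 motif in both orientations, overlapping by 6 bases, and a pair of overlapping GC boxes. That of Ndufv1 is chr19:4012807-4013005 on the minus strand, with an E-box. Those of Uqcrc1, chr9:108936398-108936632 on the plus strand, and Atp5g2, chr15:102671128-102671297 on the minus strand, hold none of the motifs. The stretch of Atp5g2 lies within the gene as annotated, at 102662864 to 102672352, and not before it. That of Cox5a is chr9:57520982-57521231 on the plus strand, with a GC box in reverse complement. That of Atp5b is chr10:128083057-128083272 on the plus strand, with a GC box in each orientation.
Ndufaf4: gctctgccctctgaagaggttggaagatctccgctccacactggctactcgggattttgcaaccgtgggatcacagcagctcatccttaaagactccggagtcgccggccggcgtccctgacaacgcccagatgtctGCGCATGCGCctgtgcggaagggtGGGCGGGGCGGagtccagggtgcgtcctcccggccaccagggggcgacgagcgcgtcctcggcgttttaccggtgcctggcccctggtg
Ndufv1: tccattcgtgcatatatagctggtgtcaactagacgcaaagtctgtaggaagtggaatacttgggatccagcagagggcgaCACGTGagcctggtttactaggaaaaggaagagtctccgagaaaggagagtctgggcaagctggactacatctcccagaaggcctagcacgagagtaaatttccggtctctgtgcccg
Uqcrc1: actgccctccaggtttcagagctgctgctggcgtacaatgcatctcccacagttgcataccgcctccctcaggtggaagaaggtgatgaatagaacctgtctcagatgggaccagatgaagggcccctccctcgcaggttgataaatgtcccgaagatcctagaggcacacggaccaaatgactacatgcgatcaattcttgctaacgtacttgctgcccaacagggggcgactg
Cox5a: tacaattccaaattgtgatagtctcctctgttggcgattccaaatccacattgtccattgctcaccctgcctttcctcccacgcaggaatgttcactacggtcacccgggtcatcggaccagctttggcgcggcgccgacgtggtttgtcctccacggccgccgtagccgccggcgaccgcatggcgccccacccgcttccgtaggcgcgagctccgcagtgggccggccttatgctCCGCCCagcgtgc
Atp5b: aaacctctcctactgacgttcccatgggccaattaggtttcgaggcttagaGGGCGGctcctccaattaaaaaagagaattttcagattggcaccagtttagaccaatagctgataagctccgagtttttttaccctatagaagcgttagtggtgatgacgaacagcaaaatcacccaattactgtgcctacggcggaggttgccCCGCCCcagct
Atp5g2: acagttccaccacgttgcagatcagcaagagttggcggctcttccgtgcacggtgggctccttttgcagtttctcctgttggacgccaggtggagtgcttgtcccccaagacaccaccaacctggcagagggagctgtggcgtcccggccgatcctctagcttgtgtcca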

How the data were processed

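RNA sequencing of left cortex was labelled for 35 mice, and values were held for 34. Replicate 5 of PBS at 3 wpi had been excluded by the authors and is not analysed here. Per the submitters' processing notes, the authors checked paired-end reads with FastQC 0.11.8, trimmed them with cutadapt 2.4 and quantified them with kallisto 0.46 against GENCODE protein-coding transcripts, then used sleuth 0.30 in R 3.6.1. The estimated counts were deposited by the authors as kallisto made them, summed per gene and not normalised. The TPM values were deposited by the authors as kallisto's length-scaled values of each library, summed per gene. The p-value, q-value and fold-change columns of the authors were not used.

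Estimated counts were rounded, filtered with filterByExpr of edgeR 4.0.16 in R 4.3.3 (17131 of 21203 genes), scaled by TMM, and fitted in a single quasi-likelihood model of 7 groups and 34 libraries. The Sham mice of both weeks were 1 group. Each of 15 comparisons and the interaction of treatment with week was tested with edgeR's quasi-likelihood F test, two-sided, with Benjamini-Hochberg adjustment over all genes tested and a threshold of 0.05. Libraries held 29838423 to 41554322 counts, and the 66 pairs of libraries within groups correlated between 0.981 and 0.994 across genes on the log2 scale. The code was tested on simulated data.

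Genes were named by these rules: paralogous subunits with their common partners and AA467197; the 20 core and catalytic subunits; in each comparison the 10 members with the largest change past the threshold; the member highest per length in each complex; and the 3 largest changes of a list described. Genes outside them are given as chosen after their values were seen. The members and lists were chosen with earlier results of these data known. Alternatives were DESeq2's median-ratio size factors, library size alone, DESeq2 1.42.0, no filter, only the groups compared, Sham of the same week, the replicate number as a block, striatum or neuron markers as a covariate, and leaving out each library. Those added after seeing the data were leaving out the 2 libraries low in short genes, or these and replicate 1 of IL-4 MSC at 1 wpi, a length offset, endothelium and mural cell markers as a covariate, each library in turn as the reference of TMM, and leaving out each library, or the Sham mice of the other week, with the genes tested, library sizes and TMM factors of all libraries held.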

Additional observations from a re-analysis of the deposited data

Results flagged for a closer look

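A mouse was singled out where its gap to the nearest other mouse of its group, as a share of the range of the group, was above Dixon's critical value. This was so in 12 cases over 84 groups tested, where chance gives about 1 in 20 groups. Replicate 3 of PBS at 1 wpi was lowest in the members' percent of counts (0.631 against 0.757, share 0.754), in the members' median deviation (-0.29 against -0.02, share 0.755), and in the CPM of Uqcrc2 (125 against 137, share 0.813), Atp5b (673 against 760.5, share 0.811) and Atp5g2 (45.4 against 54.8, share 0.827). Replicate 2 of MSC at 3 wpi was lowest in Uqcrc2 (129 against 137 CPM, share 0.784). Replicate 1 of IL-4 MSC at 1 wpi was lowest in the members' percent of counts (0.731 against 0.764, share 0.8292) and in their median deviation (-0.10 against -0.04, share 0.722). Replicate 2 of that group was highest in the percent of counts from mitochondrial DNA (5.98 against 5.41, share 0.874). In Sham, replicate 4 was highest in Ndufa4l2 (2.34 against 1.78 CPM, share 0.797), replicate 5 lowest in Atp5g2 (49.5 against 53.1 CPM, share 0.821) and replicate 2 highest in Ndufs4 (42.7 against 40.9 CPM, share 0.767).

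A difference between weeks was singled out where the interaction test passed. The log2 difference of IL-4 MSC from PBS was larger at 1 wpi than at 3 wpi by 1.14 for Ndufa4l2 and by 2.47 for AA467197. The difference of IL-4 MSC from MSC at 1 wpi less that at 3 wpi was 2.56 for AA467197, -0.16 for Uqcrc1 and -0.13 for Ndufs1.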

How the results depend on the processing

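Ndufa4l2 kept its direction and its side of the threshold with IL-4 MSC at 1 wpi against Sham, PBS and MSC in all settings tried and without any single mouse. No member passed under any setting for PBS at 3 wpi against Sham, MSC against PBS at 1 wpi, IL-4 MSC against PBS and MSC against PBS at 3 wpi, or the interaction of MSC against PBS with week. The counts of members past the threshold that moved are given below, and the cause was not tested.

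At library size alone the count was 0 for PBS against Sham at 1 wpi (3 with TMM), 2 for MSC against Sham (5), 5 for IL-4 MSC against Sham (26), 0 for IL-4 MSC against MSC at 3 wpi (1), 3 for MSC from 1 to 3 wpi (1), 2 for IL-4 MSC from 1 to 3 wpi (18), and 0 for the interaction of IL-4 MSC against MSC (2). With DESeq2's median-ratio size factors it was 9 for IL-4 MSC and 2 for MSC from 1 to 3 wpi, and 0 for that interaction. DESeq2's own test gave 5 for PBS against Sham at 1 wpi, 1 for PBS and 2 for MSC from 1 to 3 wpi. Without a filter the interaction of IL-4 MSC against MSC had 1. With only the 2 groups compared in the fit there were 0 for PBS against Sham at 1 wpi, 1 for IL-4 MSC against PBS at 1 wpi, 0 for IL-4 MSC against MSC at 3 wpi and 0 for MSC from 1 to 3 wpi. Against Sham of the same week there were 12 for PBS and 10 for MSC at 1 wpi, and 1 for IL-4 MSC at 3 wpi.

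With striatum markers as a covariate there were 8 for PBS against Sham and 1 for IL-4 MSC against PBS at 1 wpi, and 0 for IL-4 MSC against MSC at 3 wpi. With neuron markers there were 0 for PBS, 0 for MSC and 1 for IL-4 MSC against Sham at 1 wpi, 0 for IL-4 MSC against MSC at 3 wpi, and 0 for MSC and 1 for IL-4 MSC from 1 to 3 wpi. Under the neuron markers the log2 fold change turned for Ndufv1 (0.026, adjusted p = 0.823) and Uqcrc1 (0.0039, adjusted p = 0.975) with IL-4 MSC at 1 wpi against Sham and for Ndufv1 from 1 to 3 wpi (-0.011, adjusted p = 0.942). With the replicate number as a block, counts stayed within 1.5 times of the main ones, as 4, 5 and 28 for PBS, MSC and IL-4 MSC against Sham at 1 wpi and 17 for IL-4 MSC from 1 to 3 wpi.

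Against Sham of the same week with the TMM factors of all libraries held there were 8 for PBS at 1 wpi and 1 for IL-4 MSC at 3 wpi, a setting chosen after seeing the data.

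Among the other settings chosen after seeing the data, leaving out the 2 libraries low in short genes gave 13 for MSC and 40 for IL-4 MSC against Sham and 10 for IL-4 MSC against PBS at 1 wpi, 0 for IL-4 MSC against MSC at 3 wpi, 2 for MSC and 33 for IL-4 MSC from 1 to 3 wpi, and 2 for the interaction of IL-4 MSC against PBS (1), with the scaling held or not. Those 2 libraries are not of the groups compared for MSC or IL-4 MSC against Sham at 1 wpi, nor for IL-4 MSC from 1 to 3 wpi. Without replicate 1 of IL-4 MSC at 1 wpi as well as those 2, there were 13 for MSC against Sham, 6 for IL-4 MSC against PBS at 1 wpi, 2 for MSC from 1 to 3 wpi and 1 for the interaction of IL-4 MSC against MSC. With other reference libraries of TMM the lowest and highest counts were 1 and 10 for PBS, 2 and 6 for MSC and 12 and 27 for IL-4 MSC against Sham at 1 wpi, 1 and 4 for IL-4 MSC against PBS at 1 wpi, 0 and 1 for IL-4 MSC against MSC at 3 wpi, 1 and 3 for MSC and 4 and 19 for IL-4 MSC from 1 to 3 wpi, and 0 and 5 for the interaction of IL-4 MSC against MSC. The length offset gave 20, 23 and 61 for PBS, MSC and IL-4 MSC against Sham at 1 wpi, 2 for MSC against Sham at 3 wpi, 8 for IL-4 MSC against PBS and 3 against MSC at 1 wpi, 2 for IL-4 MSC against MSC at 3 wpi, 3, 6 and 41 for PBS, MSC and IL-4 MSC from 1 to 3 wpi, and 2 and 4 for the interactions of IL-4 MSC against PBS and MSC. Endothelium and mural cell markers as a covariate gave 3 for MSC and 10 for IL-4 MSC against Sham, 1 for IL-4 MSC against PBS, and 0 for MSC and 2 for IL-4 MSC from 1 to 3 wpi.

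Leaving out a mouse, with the scaling computed anew or held, gave 0 to 9 for PBS, 1 to 7 for MSC and 10 to 28 for IL-4 MSC against Sham at 1 wpi, and 0 to 1 for IL-4 MSC at 3 wpi. It gave 1 to 8 for IL-4 MSC against PBS and 1 to 2 against MSC at 1 wpi, and 0 to 3 for IL-4 MSC against MSC at 3 wpi. From 1 to 3 wpi it gave 0 to 2 for PBS, 1 to 2 for MSC and 4 to 18 for IL-4 MSC, with 11 without IL-4 MSC replicate 3 of 1 wpi or replicate 3 or 4 of 3 wpi with the scaling held. For the interactions of IL-4 MSC it gave 1 to 2 against PBS and 0 to 5 against MSC. With the scaling computed anew the counts were 10 to 21 for IL-4 MSC against Sham at 1 wpi and 4 to 16 for IL-4 MSC from 1 to 3 wpi, below 26 and 18 in each fit. The reference library of TMM can change there with the mouse left out. Of 64 pairs of a named gene and a comparison, 30 lost their call at library size alone, 32 with neuron markers, where the 3 that turned did not pass either, 19 with endothelium and mural cell markers, and 25 without some mouse with the scaling computed anew.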
